A study of Mus musculus with 9 samples.

Results

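Circadian clock genes were examined in the stomach of newborn mice with and without the transcription factor C/EBPβ, whose gene is Cebpb. The members are the 10 genes Per1, Per2, Per3, Dbp, Nr1d1, Nr1d2, Arntl, Npas2, Clock and Cry1, chosen by name, and every probe that carries one of these names was read, which gave 13 of the 55681 probes on the array. Of the 10 genes, 9 passed the filter on dim probes and are among the 21723 genes tested; Cry1 did not. The samples are whole stomachs of 5 mice with a C/EBPbeta knockout (KO 1 to KO 5) and 4 wild-type mice (WT 1 to WT 4), taken at birth, with 1 Agilent 1-colour array per mouse. The labels give neither the strain, nor the part of the gene removed, nor the hour of collection, and one label field calls the animals old. A level is given in log2, relative to the 75th percentile of processed signal on the same array, so a probe at 0 is as bright as that percentile.

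The circadian clock is a feedback loop of transcription. CLOCK, or its relative NPAS2, pairs with ARNTL (also called BMAL1) and switches on genes with an E-box in their control regions, among them the Per and Cry genes, whose products return to block that pair. Nr1d1 and Nr1d2 encode the REV-ERB repressors, which shut down Arntl and Npas2 through a site called RORE, and Dbp encodes a leucine zipper activator that works through the D-box. In adult mouse tissues the Per, Dbp and Nr1d genes are therefore high when Arntl and Npas2 are low. Per1 can also be induced within a short time by stress signals and by glucocorticoids.

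The promoters of 9 of the 10 genes were matched in RefSeq (GRCm38.p6), in 13 entries that run from 250 bases before the start site to 50 after it. The 4 below are shown because they hold the motifs through which the loop is wired. Capitals mark matches on either strand to the E-box CACGTG, its variant CACGTT, the D-box TTATGTAA or TTACGTAA, the core of the RORE (TAGGTCA or TGGGTCA), or TTNNGCAA, a motif of the C/EBP family.
Per1 promoter, chr11:69098699-69098998, plus strand: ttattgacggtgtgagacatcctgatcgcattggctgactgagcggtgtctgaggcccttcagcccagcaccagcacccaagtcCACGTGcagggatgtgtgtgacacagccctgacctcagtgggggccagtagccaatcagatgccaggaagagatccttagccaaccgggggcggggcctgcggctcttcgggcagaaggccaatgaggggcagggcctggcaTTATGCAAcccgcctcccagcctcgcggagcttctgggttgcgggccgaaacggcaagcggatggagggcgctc
Nr1d1 promoter, chr11:98775328-98775627, minus strand: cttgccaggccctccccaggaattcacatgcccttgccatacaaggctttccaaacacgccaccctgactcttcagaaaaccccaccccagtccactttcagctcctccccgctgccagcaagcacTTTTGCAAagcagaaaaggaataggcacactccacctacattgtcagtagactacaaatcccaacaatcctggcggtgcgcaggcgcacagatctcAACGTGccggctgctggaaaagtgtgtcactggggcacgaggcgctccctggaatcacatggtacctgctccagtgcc
Per3 promoter, chr4:151044616-151044915, minus strand: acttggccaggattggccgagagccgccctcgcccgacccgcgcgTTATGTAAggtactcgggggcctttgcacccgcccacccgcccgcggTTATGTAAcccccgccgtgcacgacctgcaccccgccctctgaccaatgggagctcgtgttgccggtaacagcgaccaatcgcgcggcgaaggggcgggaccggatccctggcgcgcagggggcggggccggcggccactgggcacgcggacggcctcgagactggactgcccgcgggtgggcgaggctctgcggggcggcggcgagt
Arntl promoter, chr7:113207261-113207560, plus strand: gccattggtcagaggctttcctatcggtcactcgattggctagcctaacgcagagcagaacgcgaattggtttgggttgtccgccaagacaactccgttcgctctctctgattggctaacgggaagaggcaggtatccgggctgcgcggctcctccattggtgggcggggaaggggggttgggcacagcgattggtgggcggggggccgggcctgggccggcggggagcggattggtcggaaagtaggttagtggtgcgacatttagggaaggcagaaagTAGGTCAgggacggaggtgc
The Per1 entry holds an E-box from −166 to −161 relative to the start site and the C/EBP motif TTATGCAA from −24 to −17. The Nr1d1 entry holds the E-box variant, read as AACGTG on the strand shown, from −28 to −23 and the C/EBP motif TTTTGCAA from −124 to −117. The Per3 entry has 2 copies of the D-box, from −205 to −198 and from −158 to −151, and the Arntl entry has a RORE core from 31 to 37. Cry1 held an E-box (−60 to −55) and an E-box variant (−79 to −74), and the windows of Dbp, Nr1d2, Npas2 and Clock held none of these letters. The other Per1 entry and the other Arntl entry, not shown, held none either. Over all 32851 promoter entries, 7.15% held the E-box, 4.68% its variant, 1.06% the D-box, 6.45% the RORE core and 10.8% the C/EBP motif. A match is a run of letters and does not show that a factor binds there.

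Of the 9 tested clock genes, 0 differed between knockout and wild type after Benjamini-Hochberg adjustment over all genes (limma; 1 at an unadjusted p below 0.05), where 0.203% of all tested genes did (44 of 21723) and 8.72% had an unadjusted p below 0.05. Of the 9, 7 were higher and 2 lower in the knockout by fitted difference, with a median difference of 0.32 (log2), none of these past the test, beside 50.9% higher and a median of 0.0049 over all genes. The targeted gene fell on all knockout arrays, with Cebpb at −2.18 ± 0.60 (SD, n = 5) in knockout and 3.30 ± 0.30 (SD, n = 4) in wild type (log2 difference −5.48 ± 0.30 SE; limma adjusted p = 0.000123). WT 4 was the least typical array of its group, with a median correlation over all genes of 0.950 with its own group where the other 8 arrays had 0.973 to 0.986; with the knockout arrays WT 4 had 0.959. The 5 knockout arrays lie on 4 slides. Slide 1 holds KO 4, KO 5, WT 3 and WT 4, slide 4 holds KO 2, WT 1 and WT 2, and KO 1 and KO 3 each have a slide of their own. Of 3 Y-linked genes tested, all were well above background on KO 1, KO 3 and the wild-type arrays, 1 on KO 2, and 0 on KO 4 and KO 5.

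**Figure D1:**
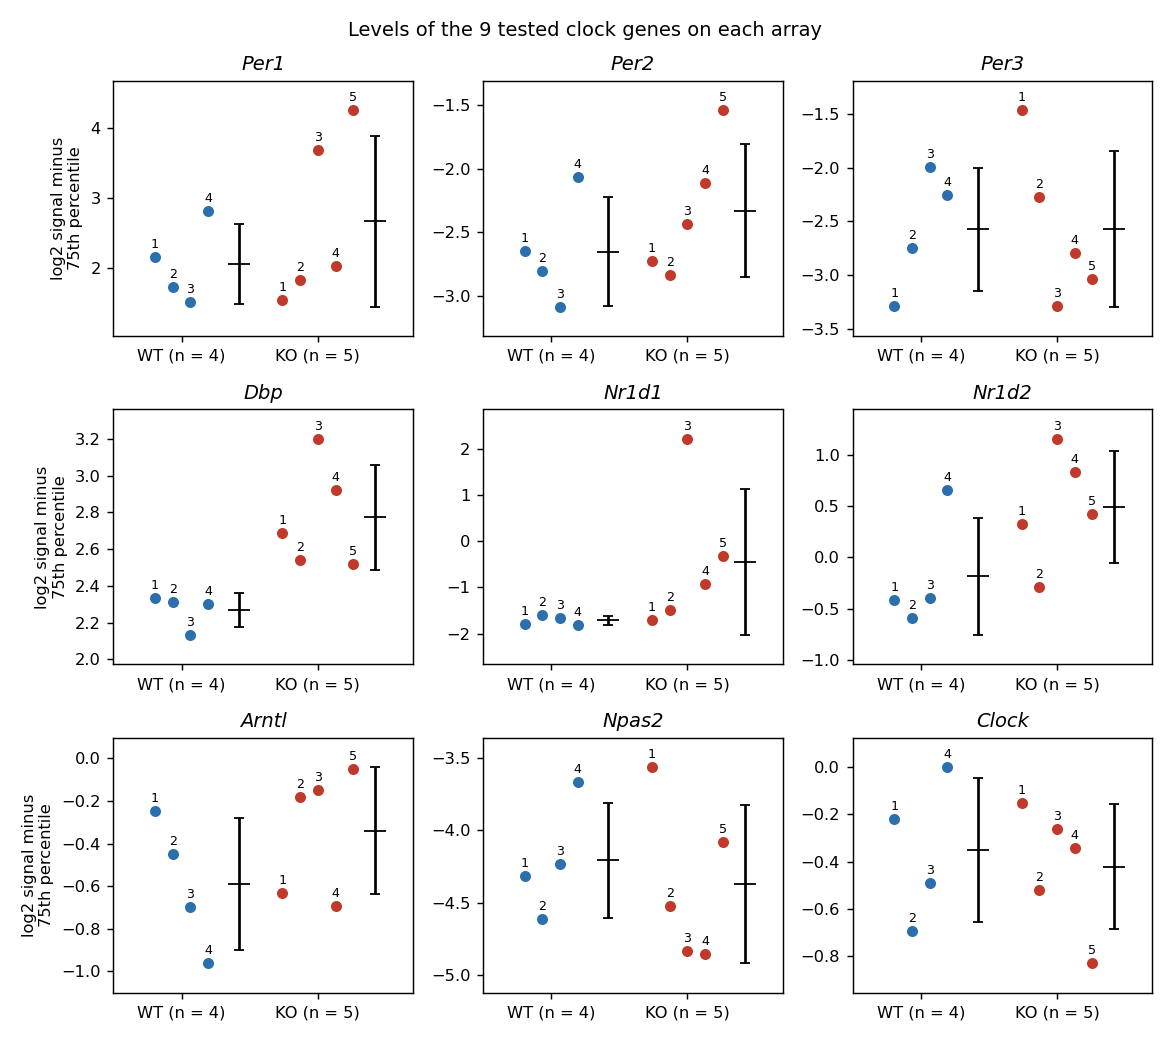
Log2 level relative to the array's 75th percentile of each tested clock gene on 4 wild-type (blue) and 5 knockout (red) arrays; numbers give the mouse, horizontal marks the mean and bars the SD. The knockout points of Dbp all lie above the wild-type points, and KO 3 lies far above all other arrays for Nr1d1.

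Dbp, the D-box activator, was the 1 member whose groups did not overlap. Its log2 level was 2.69, 2.54, 3.20, 2.92 and 2.52 across KO 1 to KO 5, while WT 1 to WT 4 gave 2.33, 2.31, 2.13 and 2.30. The lowest knockout array thus exceeded the highest wild-type one; groups that do not overlap were found for 3.38% of all tested genes, and with knockout higher for 2.31%. The knockout mean exceeded the wild-type mean by 0.50 ± 0.17 (log2, SE; 1.42-fold; 95% interval 0.12 to 0.88). This difference did not pass over all genes (limma p = 0.0148, adjusted p = 0.432; exact permutation p = 0.0238, two-sided, over all splits of the arrays, which allow 0.00794 at the lowest). A second Dbp probe, 139 bases further along the same transcript, gave a difference of 0.37 ± 0.15 (limma adjusted p = 0.583 over the kept probes), and there KO 5 (2.28) lay below WT 4 (2.31). KO 3, highest on the main probe, read 2.51 on the second, below KO 1 (2.61), KO 2 (2.59) and KO 4 (2.78). The figures and the correlations use the main probe. Within slide 1 the main probe differed by 0.50 ± 0.30, and within slide 4 by 0.22 ± 0.23. With slide as a block the difference was 0.39 ± 0.19 (limma adjusted p = 0.807). KO 1 and KO 3, each alone on a slide, add nothing to that difference. Both Dbp probes lie on chromosome 7, the main one at chr7:52965322-52965381 and the second at chr7:52965461-52965520 (mm9, plus strand).

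Markers of the cell types that a stomach sample could hold were read beside the clock genes. The mean level of 13 glandular stomach markers ran from 4.55 to 4.72 over the knockout arrays and from 3.43 to 4.09 over the wild-type arrays, and all 13 were higher in knockout, with 1 past the test. The 12 forestomach squamous markers ran from 2.80 to 4.10 in knockout and from 2.40 to 4.75 in wild type, lowest on WT 4 and KO 5, and the 7 smooth muscle markers from 5.47 to 6.21 and from 5.86 to 6.65, with 0 of either list past the test. An unadjusted limma p below 0.05 was found for 7 of the 13 glandular, 1 of the 12 squamous and 3 of the 7 muscle markers. Over all tested genes 8.72% had such a p, 0.203% passed and 50.9% were higher in knockout. The mean of 7 granulocyte markers ran from −0.70 to 0.15 in knockout and from 0.45 to 0.78 in wild type, without overlap. The 7 did not fall together, since 3 were higher and 4 lower in knockout, with a median difference of −0.12 (log2). Of the 7, 1 passed (S100a9, log2 difference −2.77 ± 0.36 SE, limma adjusted p = 0.0160). The mean of 7 liver markers was 1.61 on WT 4 and 1.33 on KO 2 and ran from −1.70 to 0.12 on the other 7 arrays, with 0 past the test. The part of these differences in the clock gene values was not tested. In whole stomachs, fewer cells of a type and less RNA per cell cannot be told apart.

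Nr1d1, which encodes REV-ERBα, varied more between mice than nearly all genes, and 1 knockout array set its mean. It was read by 1 probe whose ends lie 503 bases apart on the genome (chr11:98630526-98631028, mm9, minus strand), so that its 60 bases are interrupted there.
Nr1d1 probe: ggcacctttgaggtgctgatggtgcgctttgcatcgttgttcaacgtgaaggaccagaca
The log2 level was −1.71, −1.50, 2.21, −0.93 and −0.31 for KO 1 to KO 5, against −1.79, −1.60, −1.66 and −1.80 for WT 1 to WT 4. KO 3 was far above all others, KO 2, KO 4 and KO 5 also lay above the wild-type range, and KO 1 lay inside it. In processed signal, KO 3 read 2187 where the other 8 arrays read 63.3 to 369. The difference of 1.26 ± 0.68 (log2, SE) did not pass the test (limma adjusted p = 0.663; exact permutation p = 0.0794) and was 0.60 ± 0.29 without KO 3. It was 0.74 ± 0.27 with slide as a block (limma adjusted p = 0.707), 1.11 ± 0.34 within slide 1 and 0.20 ± 0.24 within slide 4. The slide-block value takes nothing from KO 1 and KO 3, each alone on a slide. The SD was 1.58 among knockout arrays (n = 5) and 0.10 among wild-type arrays (n = 4). Pooled within groups, the SD of Nr1d1 was 1.20, at the 98.4th percentile of all tested genes, whose median was 0.35.

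Nr1d2, the gene of the second REV-ERB repressor, was highest on the same array. Its log2 level was 0.32, −0.29, 1.16, 0.84 and 0.42 across KO 1 to KO 5, while WT 1 to WT 4 gave −0.42, −0.59, −0.40 and 0.66. WT 4 lay within the knockout range, so the groups overlapped. The difference was 0.68 ± 0.33 (log2, SE; limma adjusted p = 0.621), and 0.96 ± 0.29 without WT 4 (adjusted p = 0.164). It was 0.51 ± 0.33 without KO 3, 0.38 ± 0.29 with slide as a block, 0.50 ± 0.46 within slide 1 and 0.22 ± 0.24 within slide 4. Here too the slide-block value takes nothing from KO 1 and KO 3. The array design places this probe, made for the accession BC096461, on chromosome 19, whereas its other Nr1d2 probe lies on chromosome 14 (chr14:19037253-19037312, mm9, minus strand), where RefSeq also has the gene. The chromosome 14 probe gave 0.66 ± 0.33, with KO 3 again highest (0.32) and WT 3 lowest (−1.45).

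Per1 encodes a repressor of the loop that also responds to acute signals. Its log2 level was 1.54, 1.83, 3.68, 2.03 and 4.25 for KO 1 to KO 5, against 2.16, 1.73, 1.52 and 2.82 for WT 1 to WT 4. KO 5 and KO 3 lay above all wild-type arrays and the other 3 knockout arrays inside the wild-type range. The difference of 0.61 ± 0.57 (log2, SE) did not pass (limma adjusted p = 0.844; exact permutation p = 0.397) and was 0.36 ± 0.58 without KO 3 and 0.21 ± 0.48 without KO 5. A second Per1 probe, made for the accession AK081813 (chr11:68919895-68919954, mm9, plus strand), was well above background on KO 3 and on none of the other arrays, with a processed signal of 120 there and of 3.45 to 16.3 elsewhere.

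The other Per genes did not separate the groups. Per2 had a log2 level of −2.33 ± 0.52 (SD, n = 5) in knockout and −2.65 ± 0.43 (SD, n = 4) in wild type, with KO 5 highest (−1.54) and WT 3 lowest (−3.08). The Per2 difference was 0.32 ± 0.30 (SE; limma adjusted p = 0.840). Per3, whose promoter carries the D-box pair shown above, differed by 0.0017 ± 0.39 (limma adjusted p = 1.000), and its 95% interval ran from −0.87 to 0.87. Per3 was highest on KO 1 (−1.47) and lowest on WT 1 (−3.29) and KO 3 (−3.29). KO 3 was thus among the lowest arrays for Per3 and the highest for the main Dbp probe, though not for the second Dbp probe.

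Among the activators, Arntl and Clock varied less between mice than Npas2. Arntl had a log2 level of −0.34 ± 0.30 (SD, n = 5) in knockout and −0.59 ± 0.31 (SD, n = 4) in wild type (difference 0.25 ± 0.21 SE; limma adjusted p = 0.817), from −0.96 on WT 4 to −0.050 on KO 5. Clock differed by −0.070 ± 0.20 (adjusted p = 0.971; 95% interval −0.51 to 0.37), with WT 4 highest and KO 5 lowest. Npas2 was dim, well above background on 3 of 5 knockout and 3 of 4 wild-type arrays, and differed by −0.17 ± 0.30 (adjusted p = 0.944). Pooled within groups, the SD of Clock lay at the 36.9th percentile of all tested genes and that of Arntl at percentile 41.0, with Npas2 at 71.6, Per1 at 96.6, Per3 at 86.4 and Dbp, the least variable member, at 23.2. From the lowest to the highest array, Clock spanned 1.78-fold, Arntl 1.88-fold, Dbp 2.10-fold, Per1 6.62-fold and Nr1d1 16.2-fold.

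Cry1, a repressor that partners the PER proteins, was well above background on KO 1, KO 5 and WT 1 and on no other array. The knockout arrays, KO 1 to KO 5, read 16.2, 9.78, 18.3, 20.6 and 38.2 in processed signal, and WT 1 to WT 4 read 16.3, 6.19, 6.26 and 3.67. The gene was therefore left out of the fit, and KO 5 was the brightest array.

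**Figure D2:**
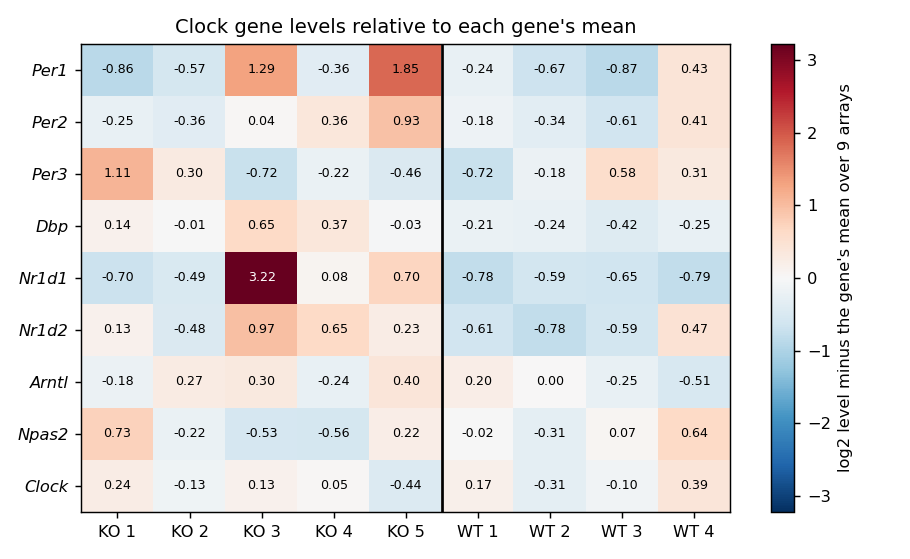
Log2 level of each tested clock gene on each array minus the gene's mean over the 9 arrays; the line parts knockout from wild type. KO 3 is high for Nr1d1, Per1, Nr1d2 and the main Dbp probe, and KO 5 for Per1 and Per2, while Arntl shows no matching fall on either.

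The order known from adult clocks, with the Per, Dbp and Nr1d genes opposite to Arntl, Npas2 and Clock, was looked at on each array. Relative to each gene's mean over the 9 arrays, the mean of the 6 former genes minus that of the 3 latter was −0.34, −0.24, 0.94, 0.40 and 0.48 across KO 1 to KO 5, while WT 1 to WT 4 gave −0.57, −0.26, −0.33 and −0.075. KO 3, KO 4 and KO 5 lay above all wild-type arrays, and KO 1 and KO 2 lay inside the wild-type range. On KO 3 the 6 former genes averaged 0.91 while Arntl, Npas2 and Clock averaged −0.034, and on KO 4 the values were 0.15 and −0.25. The genes did not move together within these means. On KO 3, Nr1d1 stood at 3.22, Per1 at 1.29, Nr1d2 at 0.97, Dbp at 0.65, Per2 at 0.036 and Per3 at −0.72, with Arntl at 0.30. On KO 4, Arntl stood at −0.24, Clock at 0.050 and Npas2, not well above background there, at −0.56. The gap between the means is a description and has no test.

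Of the 36 pairs among the 9 tested genes, 0 correlated across the 9 arrays after adjustment over the pairs, and 5 did at an unadjusted p below 0.05, all 5 positive. Per1 and Per2 had the highest r of the 36 (Pearson r = 0.80, exact permutation p = 0.0102, adjusted p = 0.161; Spearman rho = 0.85, exact permutation p = 0.00607, adjusted p = 0.219). The value was similar without the 2 arrays farthest from the Per1 median, KO 5 and KO 3 (r = 0.80), within the groups (r = 0.77) and within slides (r = 0.88). In all values within slides, KO 1 and KO 3, each alone on a slide, carry no weight. Dbp and Nr1d2 had r = 0.78 (exact permutation p = 0.0119, adjusted p = 0.161; rho = 0.62, exact permutation p = 0.0857, adjusted p = 0.386), which fell to 0.41 without KO 3 and KO 4 and was 0.76 within slides. Dbp and Nr1d1 had r = 0.79 (exact permutation p = 0.0159, adjusted p = 0.161; rho = 0.63, exact permutation p = 0.0760, adjusted p = 0.386), and this rested on KO 3 and KO 4, since r was 0.30 without them. Nr1d1 and Nr1d2 (r = 0.67) and Per1 and Nr1d1 (r = 0.69) likewise fell to 0.44 and −0.13 without the 2 arrays farthest from the median of the first gene. With the 6 genes set opposite to it above, Arntl had r = 0.50 (Nr1d1), 0.48 (Per1), 0.30 (Dbp), 0.13 (Per2), −0.091 (Nr1d2) and −0.59 (Per3), so 4 were positive and 2 negative, none past the test. The value for Per3 was −0.66 within groups and −0.49 within slides.

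**Figure D3:**
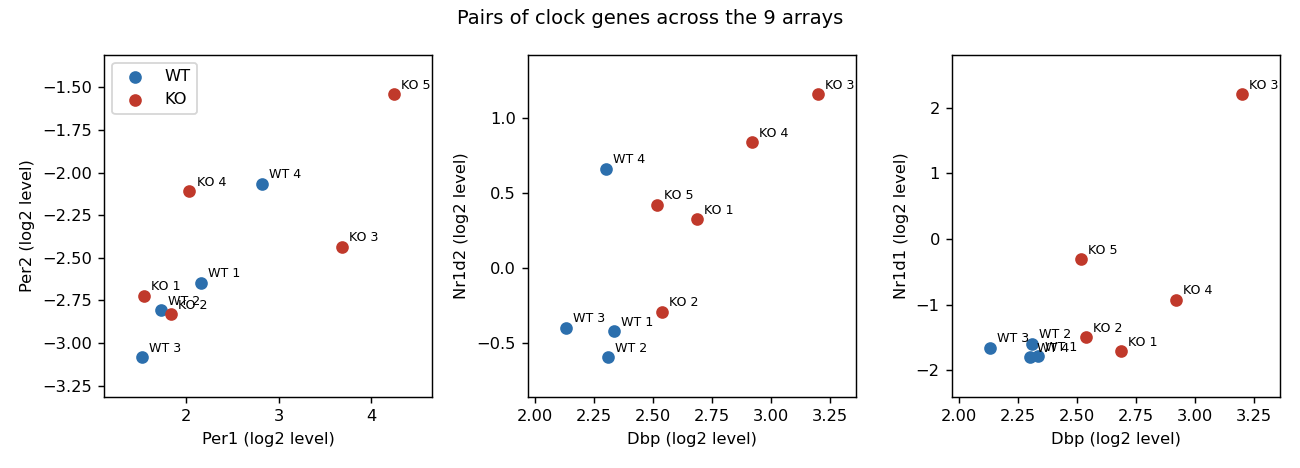
Log2 levels of Per1 against Per2, Dbp against Nr1d2 and Dbp against Nr1d1, 1 point per array. Per1 and Per2 are ordered alike over both groups, while the relation of Dbp with Nr1d1 rests on KO 3.

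Likeness was read by Pearson r over the 9 arrays among tested genes with a proper gene symbol, with the members left out. Of the 21723 tested genes, 7064 had no such symbol and could not appear. Most like Dbp were Fam43a (0.93), Kcnj12 (0.92), Cntn3 (0.92), Apol7c (0.92) and Tbc1d9 (0.92). Most like Arntl were Zfp511 (0.97), Vps35l (0.97), Rassf10 (0.95), Phf14 (0.94) and Stxbp3 (0.94). None of these 10 belongs to the list of other clock genes or to that of genes known to follow the clock. The highest rank that another clock gene reached with any tested member was that of Cry2 with Nr1d2 (r = 0.90, rank 31 of 21722), named after its value was seen.

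Of 22 other clock genes 20 were tested, and 0 passed over all genes (limma; 4 at an unadjusted p below 0.05, beside 8.72% of all tested genes). They were higher in 16 and lower in 4, with a median of 0.16 (log2), beside 50.9% higher over all tested genes. Hlf, a D-box activator related to Dbp, lay at 0.65 ± 0.20 (SE; limma adjusted p = 0.372), with its knockout arrays all above its wild-type arrays. Sirt1, a deacetylase linked to the clock, lay at 0.49 ± 0.15 and likewise did not overlap, where 3.38% of all tested genes did not. Timeless, known from DNA replication, lay at −0.66 ± 0.23, the ubiquitin ligase gene Fbxw11 at 0.42 ± 0.18, the repressor gene Cry2 at 0.46 ± 0.21 and the kinase gene Csnk1e at 0.37 ± 0.18. None of these 6 passed the test.

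**Figure D4:**
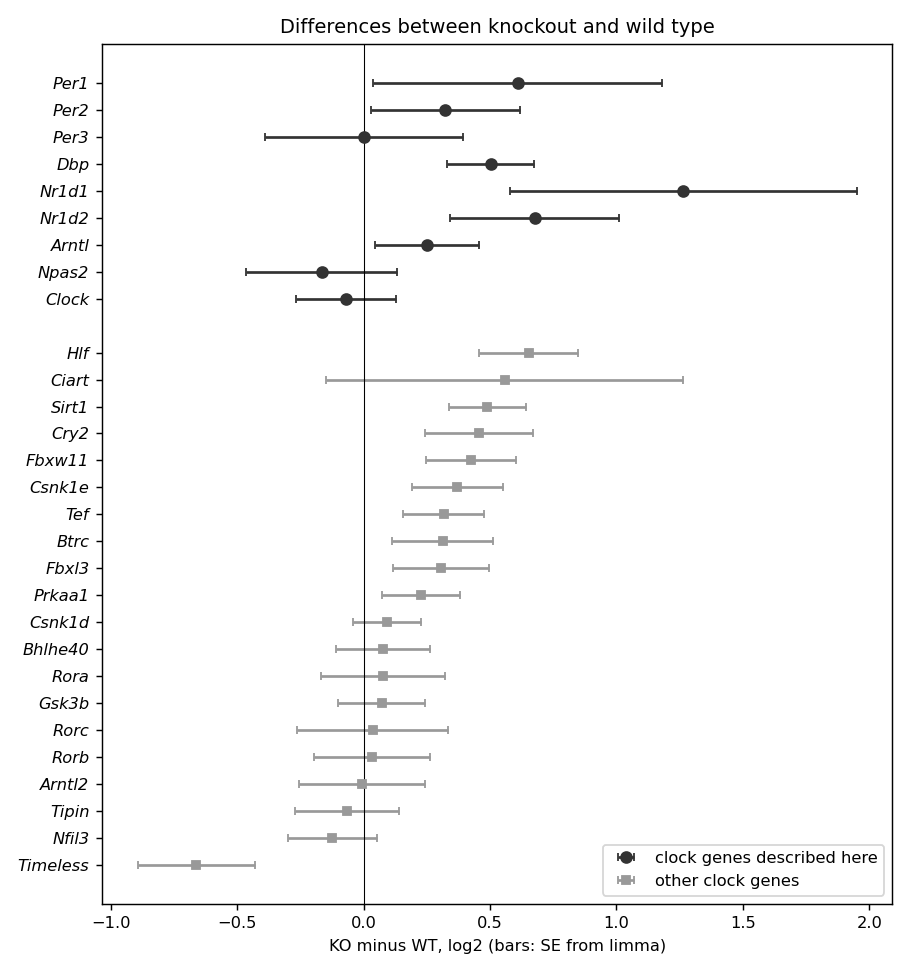
Difference between knockout and wild type (log2) with its SE from limma for the 9 tested clock genes (circles) and 20 other clock genes (squares). Nr1d1 has the largest difference and the widest bar among the circles, and 0 of the 29 genes passed the test.

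Among genes known to follow the clock, 16 of 18 were tested and 0 passed (limma; 2 at an unadjusted p below 0.05), with a median of 0.19 (log2), 13 higher and 3 lower. Over all tested genes, 8.72% had an unadjusted limma p below 0.05 and 50.9% were higher in knockout. The vasopressin receptor gene Avpr1a lay at 0.97 ± 0.26 (SE; limma adjusted p = 0.298) and Cys1 at 0.92 ± 0.26, while Ypel2 (0.35 ± 0.19), the transferrin receptor gene Tfrc (−0.43 ± 0.24), the lipase gene Pnpla2 (0.21 ± 0.14) and Cirbp, an RNA-binding protein gene of the cold response (0.46 ± 0.30), had larger p-values.

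Genes of acute signals were read beside Per1. Of 17 immediate early genes tested, 0 passed (limma; 5 at an unadjusted p below 0.05), 14 were higher, and the median was 0.55 (log2). The shares over all tested genes were 8.72% at an unadjusted limma p below 0.05 and 50.9% higher. Egr2 was well above background on 3 of 5 knockout arrays and on 1 of 4 wild-type arrays, so no fold is given for it. Fos lay at 1.35 ± 0.40 (SE; limma adjusted p = 0.363), Egr1 at 1.14 ± 0.39, Klf2 at 1.01 ± 0.35, Atf3 at 1.13 ± 0.41 and Dusp1 at 0.81 ± 0.39. The mean level of the 17 was 0.065, 0.46, 0.76, 1.31 and 1.07 on KO 1 to KO 5 and 0.060 to 0.30 on the wild-type arrays, so it was highest on KO 4 and KO 5. Of 14 glucocorticoid-induced genes, 0 passed (limma; 3 at an unadjusted p below 0.05, beside 8.72% of all tested genes), with a median of 0.25. The salt-handling kinase gene Sgk1 lay at 0.85 ± 0.23 (limma adjusted p = 0.293), Pdk4 of fuel choice at 0.82 ± 0.22, Klf9 at 1.07 ± 0.47, Dusp1, a member of both lists, at 0.81 ± 0.39, Zbtb16 at 0.95 ± 0.61 and Tsc22d3 at 0.36 ± 0.31. Their mean level was highest on KO 5 (2.84) and KO 3 (2.45), the arrays on which Per1 was highest, and ran from 1.92 to 2.36 on the other 7. The list did not move together on KO 5. Fkbp5 (3.88) and Zbtb16 (1.85) were at their highest of the 9 arrays there, but Mt2 (6.84) and Angptl4 (2.28) at their lowest, named after their values were seen.

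Across the 9 arrays, Per1 and the mean of the glucocorticoid-induced genes had r = 0.83 (exact permutation p = 0.00767, adjusted p = 0.138 over 18 relations; rho = 0.63, exact permutation p = 0.0760, adjusted p = 0.228). The value was 0.88 within groups and 0.84 within slides, where KO 1 and KO 3, each alone on a slide, carry no weight. It was 0.15 without KO 5 and KO 3, so the relation rests on those arrays. With the mean of the immediate early genes, Per1 had r = 0.54 (exact permutation p = 0.120, adjusted p = 0.233; rho = 0.57, exact permutation p = 0.121, adjusted p = 0.239), and r was 0.70 without KO 4 and KO 5, 0.45 within groups and 0.34 within slides.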

How the data were processed

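Spot intensity on a linear scale was deposited by the authors, which the file headers credit to Feature Extraction 10.5.1.1, Agilent's spot reader, (background subtracted, spatially detrended, not normalized between arrays), while the submitters' processing notes name version 9.1. The deposited files also hold flags of another kind, well above background, saturated and outlier. The authors' deposited series matrix holds log2 values. After a constant per array, close to the 75th percentile (largest difference 0.029), its differences between arrays followed the processed signal within 2.03e-06, and its centring is unknown. The column medians of KO 1 to KO 5 were 0.0436, 0.217, −0.124, 0.0347 and −0.137, those of WT 1 to WT 4 −0.279, −0.161, 0.224 and 0.382.

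Control spots and outlier flags were left out and spots of a probe averaged. On each array 50.9% to 57.2% of spots cleared the background flag, with 0 saturated. Precision is limited by how many arrays there are. Processed signals were divided by the 75th percentile of their array (221 to 472) and taken to log2. Probes well above background on at least 4 arrays were kept (30190), the brightest probe standing for a gene. Accessions matched RefSeq (GRCm38.p6, names and promoters) for 26762 probes, and probe coordinates come from the array design (mm9). The groups were compared with limma 3.58.1 in R 4.3.3, with Benjamini-Hochberg adjustment and a threshold of 0.05. Correlations were tested over all 362880 pairings of the 9 arrays. On simulated data for this comparison (21723 genes, 200 changed), 39.8% of 2-fold and 81.8% of 4-fold changes were recovered. The labels number separate mice; nothing shows that equal numbers pair them. The members and lists were chosen with earlier results of these data known. Genes named are the members, Cebpb, up to 6 genes with the smallest p of each list, and the 5 with a proper symbol most like Dbp and Arntl. Others are marked as named after their values were seen.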

Additional observations from a re-analysis of the deposited data

Results flagged for a closer look

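Among 18 sets of values (9 genes in 2 groups), 2 had an array far from the rest of its group, where chance gives about 1 in 20. WT 3 lay lowest for Dbp (2.13, the other wild-type arrays 2.30 to 2.33), and WT 4 lay highest for Nr1d2 (0.66, the others −0.59 to −0.40). Both values come from the main probes. On the chromosome 14 Nr1d2 probe WT 4 did not stand apart (−0.54, with WT 1 at −0.72). On the second Dbp probe WT 3 was lowest again (1.97, the others 2.22 to 2.31). Probes outside the comparison also carried signal above all wild-type arrays. The second Per1 probe read 120 on KO 3, and the Cry1 probe read 16.2 on KO 1 and 38.2 on KO 5, each relative to its array's 75th percentile above every wild-type array.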

How the results depend on the processing

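The count of clock genes past the test stayed at 0 under all other settings tried. Slide 4 alone is set aside here, since it holds a single knockout array. The fits within slides were chosen after seeing the data. Within slide 1 even Cebpb did not pass (log2 difference −5.00, limma adjusted p = 0.160), so the count of 0 there cannot decide. The count of all genes past the test, 44, was 22 with no filter on dim probes, 5 with slide as a block, 4 with the replicate block, 4 with the mean Y-linked level added as a term, 4 over the arrays with Y-linked signal, 533 with array weights, and between 11 and 161 with 1 array left out, lowest without WT 1 and highest without WT 4. Array weights gave the lowest adjusted p of a clock gene (Nr1d2, 0.0573) and called 1 glucocorticoid-induced gene, Sgk1, named after its value was seen. Of the clock gene pairs, 1 passed with normexp (Per3 and Npas2, r = 0.91) and between 0 and 1 with 1 array left out (Dbp and Nr1d2 without WT 4, r = 0.92, adjusted p = 0.0375). Over 23 alternative settings the difference was positive in all 23 for Dbp (0.22 to 0.67), Nr1d1 (0.20 to 1.96), Nr1d2 (0.22 to 1.05) and Arntl (0.12 to 0.46). It was positive in 22 for Per1 (−0.11 to 1.11), 21 for Per2 (−0.10 to 0.75), 16 for Per3 (−0.79 to 0.75) and 6 for Clock (−0.34 to 0.16), and in 3 of 22 for Npas2 (−0.52 to 0.077). All these settings reuse the same arrays, so the counts are not repeated support. Some differences are identical by design. With no filter they equal the main ones, and the replicate block gives those without KO 5. Without filter, Cry1 lay at 1.13 ± 0.33 (limma adjusted p = 0.577); it was well above background on 3 arrays. Equal mouse numbers did not deviate together (correlations −0.30, 0.12, 0.15 and −0.48), and with the replicate block 0 clock genes passed. Scan and slide coincide, so scan was not run apart. With slide as a block, KO 1 and KO 3, each alone on a slide, add nothing to the differences. The causes of these shifts were not tested.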
